A study of Mus musculus with 15 samples.

Results

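Stretches of the genome that every 2i/LIF embryonic stem cell line carried as a decreased H2A.X domain, and that neither line carried any longer after its move to Serum/LIF, formed 650 regions and 32.4 Mb on 17 autosomes. They were chosen by the deposited domain lists themselves: a bin of 1300 bp belongs to them if it was covered in all 3 2i/LIF lists (lines 34, 35 and 37) and in neither list of cells moved from 2i/LIF to Serum/LIF (lines 34 and 37). Chromosomes 6 and 8, on which the lists after the move hold almost no domain, were left aside, and adjacent bins were joined. The rule picked 24954 of the 1644192 bins in the span that the lists reach on these chromosomes, which is 1.52% of 2137.4 Mb. Since the rule used the 2i/LIF lists and the lists after the move, their values are given below as a description, without a test.

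H2A.X is a variant of histone H2A that is built into nucleosomes throughout the genome and is best known for its phosphorylation beside DNA double-strand breaks. Where a region holds fewer H2A.X nucleosomes than a reference, a domain caller can mark it as a decreased domain. Mouse embryonic stem cells can be kept in serum with the cytokine LIF or in a defined medium, 2i/LIF, which holds cells in a more uniform naive state and is known for a different chromatin and DNA methylation landscape.

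Native ChIP-seq of H2A.X, in which nucleosomes from nuclease-digested and uncrosslinked chromatin are immunoprecipitated, was done on male and female lines derived from 129S6 X C57B6 blastocysts. Serum/LIF cells grew on irradiated feeder cells, and 2i/LIF medium contained 1 µM PD0325901, a Mek inhibitor, and 3 µM CHIR99021, a Gsk3 inhibitor. Of 15 samples, 11 were H2A.X immunoprecipitates, and domain lists of 10 of them were used: 3 from 2i/LIF, 2 from 2i/LIF then Serum/LIF, and, of the Serum/LIF cultures, 3 whose titles carry XS (lines 30, 31 and 32) and 2 whose titles carry S (lines 35 and 37). What XS and S stand for, the sex of each line, the time spent in serum after the move and the control each list was called against were not given in the sources at hand. No list gives read counts, so the depth behind a domain is unknown, and a bin that leaves a list cannot be told apart from one that fell just short of the caller's threshold. Samples of a group carry different line numbers, so the spread between lists includes differences between lines. No line was profiled more than once in a culture among these lists, so technical spread was not measured.

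On these 17 autosomes 672 Mb lay in all 3 2i/LIF lists. Of this length 86.9%, or 583 Mb, was present in both lists after the move, 8.31% in 1 of them, and 4.83% in neither. Line 34 covered 742 Mb in 2i/LIF and 1015 Mb after the move, and line 37 covered 1001 Mb in both cultures, while line 35 covered 1677 Mb in 2i/LIF and was not followed into serum in the lists used. The places covered differed between the lists of a line, also in line 37, where the length did not. Of its own 2i/LIF length, line 37 lacked 268 Mb (26.8%) after the move and line 34 lacked 70.0 Mb (9.43%). Against the list after the move of the other line the shares were nearly the same, 27.6% and 8.99%. The 2i/LIF list of line 35, the widest, lacked 49.8% and 49.4% against those of lines 34 and 37. The share thus rose with the width of the 2i/LIF list and does not measure how much a line changed. The absent regions are the part of this absence common to lines 34 and 37 that the 2i/LIF list of line 35 also held. They depend on single lists: without 2i/LIF line 34 the rule gave 1742 regions and 215 Mb, without the list after the move of line 34 1190 and 58.3 Mb, and without that of line 37 902 and 62.4 Mb. By the same rule, chromosomes 6 and 8 held 64.0 Mb in 269 regions, 91.9% of their shared 2i/LIF length.

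The regions ranged from 1.30 to 368 kb, with a median of 33.8 kb and quartiles of 13 and 69.9 kb. Short pieces were many but held little of the length. The 168 regions of at most 10 bins, 25.8% of all, made up 2.87% of the absent length, whereas the 91 regions over 100 kb made up 42.3% of it, or 13.7 Mb. Single bins numbered 32.

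The longest region lay on chromosome 13 from 101609301 to 101977200 (368 kb, mm9). It formed the left part of a stretch of 776 kb shared by all 2i/LIF lists, and after the move a domain began at its right end in line 34 and a few bins farther on in line 37. XS line 31 covered 89.0% of it, and XS lines 30 and 32 covered none. Of the shared 2i/LIF length on chromosome 13 present in both lists after the move, XS line 32 covered only 0.144%. The next region, on chromosome 19 from 52669501 to 52995800 (326 kb), took up 93.7% of its 2i/LIF stretch. It was covered completely by XS line 31 and not at all by XS lines 30 and 32. On chromosome 14 from 105946101 to 106245100 (299 kb) the region lay in the middle of a 737 kb stretch. In line 37 domains after the move abutted it on both sides. In line 34 none lay to its left within the stretch, and one began a few bins beyond its right end. XS line 31 again covered all of the region and the other XS lists none. At the places on chromosomes 13 and 14 the 2i/LIF domains of the 3 lines had similar extents, of 737 to 829 kb, whereas on chromosome 19 they measured 348, 1916 and 580 kb in lines 34, 35 and 37.

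**Figure D1:**
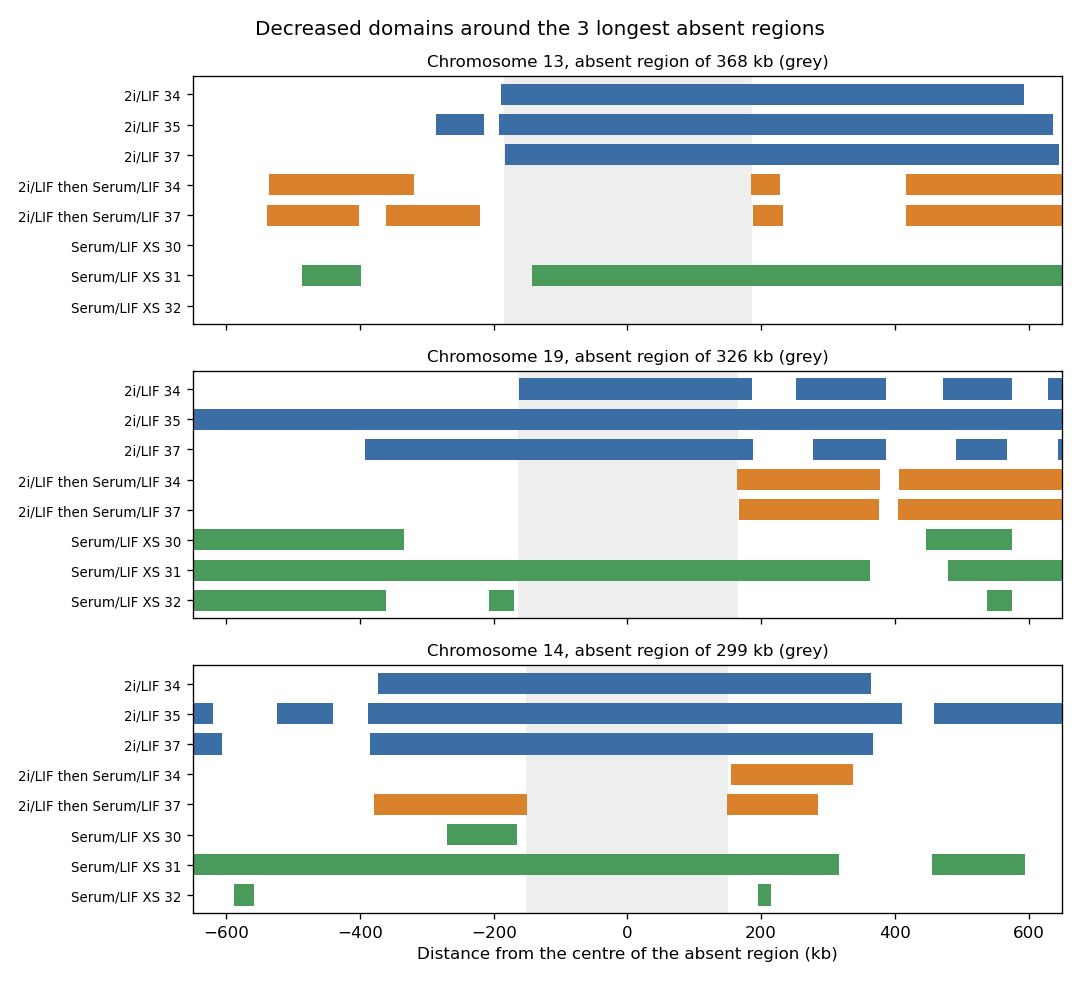
Decreased domains of 8 lists (rows; blue 2i/LIF, orange 2i/LIF then Serum/LIF, green Serum/LIF XS, with the line number) around the 3 longest absent regions (grey), against the distance from the region's centre in kb. In each panel the 3 blue bars span the grey area, no orange bar enters it, and of the green bars XS line 31 spans all or 89.0% of it while XS lines 30 and 32 are missing there.

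The 7 regions that complete the 10 longest were alike in length but not in their serum coverage. Those on chromosome 18 (11499801 to 11772800, 273 kb), chromosome 15 (95248401 to 95505800, 257 kb), chromosome 1 (173678701 to 173917900, 239 kb) and chromosome 3 (92761501 to 93000700, 239 kb) were covered over 96.2% to 100% by XS line 31, over 0 to 13.3% by XS line 32 and not at all by XS line 30. On chromosome 19 from 30382301 to 30607200 (225 kb) XS line 31 covered 100%, and XS lines 30 and 32 covered 30.1% each. The region on chromosome 14 from 100682401 to 100934600 (252 kb) was covered only over 17.5% by XS line 31 and 17% by XS line 32. The region on chromosome 19 from 14670501 to 14913600 (243 kb) was touched by no XS list and is the longest of the 177 regions of that kind. Next in length among these were one of 218 kb on chromosome 15 (77281101 to 77499500) and one of 170 kb on chromosome 2 (18313101 to 18483400).

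Most regions were cut from the margin of a larger 2i/LIF stretch, a stretch being an unbroken run of bins in all 3 2i/LIF lists. Of the 650 regions, 436 (67.1%) shared 1 end with their stretch, 143 (22%) lay inside it, and 71 (10.9%) were the whole stretch. By length the shares were 55.1%, 25.9% and 19%. Regions at an edge had a median length of 23.4 kb, those inside 44.2 kb and whole stretches 80.6 kb. Left and right edges were met about equally, with 224 and 212 regions. A region at an edge took a median of 12.8% of its stretch and a region inside it 10.7%.

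**Figure D2:**
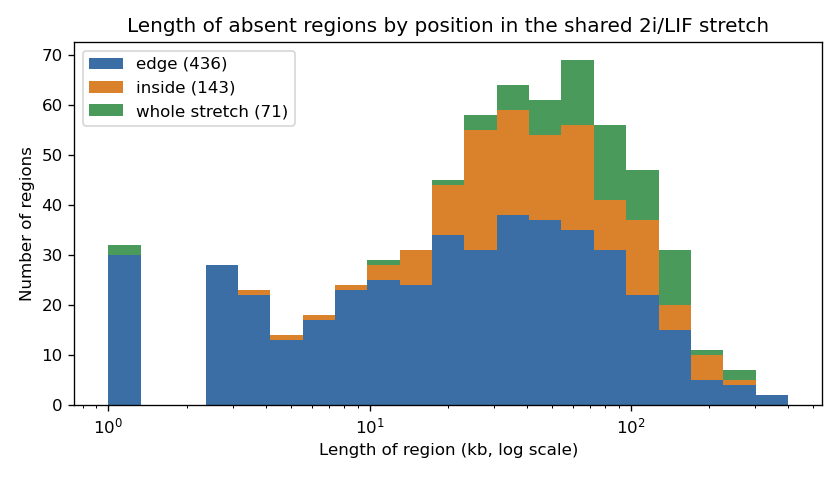
Number of regions by length (kb, log scale), stacked by position in the shared 2i/LIF stretch (blue, 436 at an edge; orange, 143 inside; green, 71 whole stretches). Nearly all regions of only a few bins are at an edge, and whole stretches lie mostly among the longer regions, with a median of 80.6 kb.

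Against the domains of single lists the position of the regions differed by line. In 2i/LIF line 34, which had the narrowest list, most regions (353) were at the edge of a domain, 254 were inside one and 43 were a whole domain. In line 37 most were inside, with 135 at an edge, 506 inside and 9 whole, as in line 35, the widest list, with 72, 572 and 6. The end of the shared stretch was accordingly set by line 34 in most places. Of the 578 region ends that were also ends of a shared 2i/LIF stretch, the next bin was missing from the list of line 34 at 439, of line 37 at 153 and of line 35 at 84; some ends were shared by several lists. The position of a region therefore depends on which 2i/LIF list is used to define the stretch.

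At the other 722 ends a domain after the move began in the next bin, in both lines at 68 of them, in line 37 alone at 400 and in line 34 alone at 254. By the rule, a list after the move must cover the next bin at these ends, and the border was set by the list that reached farther. All 579 regions at an edge or inside a stretch (89.1%) therefore abutted a domain of a list after the move. The 71 that did not were the whole stretches, whose median distance from the nearest such domain was 92.3 kb; 33 regions were over 100 kb away. The most remote region was 3845 kb from any domain after the move. Of all absent bins, 24.6% lay within 13 kb of a domain after the move and 20.2% more than 100 kb from one.

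By length, absence was most frequent close to the ends of 2i/LIF stretches and in short stretches. Within 13 kb of an end 10.5% of the shared 2i/LIF bins were absent after the move, between 52 and 104 kb 5.00%, between 208 and 416 kb 1.83%, and beyond 416 kb 0.717%. Bins within 13 kb of an end made up 8.97% of the shared 2i/LIF length and 19.5% of the absent length. Of the 2343 stretches 575 (24.5%) held an absent region, most of them (506) exactly 1. Stretches up to 50 kb lost 11.7% of their length, those of 50 to 200 kb 9.36%, those of 200 to 500 kb 5.51% and those over 500 kb 2.25%. The share of stretches that held any absent region ran otherwise: it was lowest up to 50 kb, at 16.6%, and 23.3%, 27.9% and 25.4% in the longer classes. None of the 342 stretches over 500 kb was wholly absent, compared with 17 of 169 up to 50 kb, although 87 of the 342 held an absent region.

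**Figure D3:**
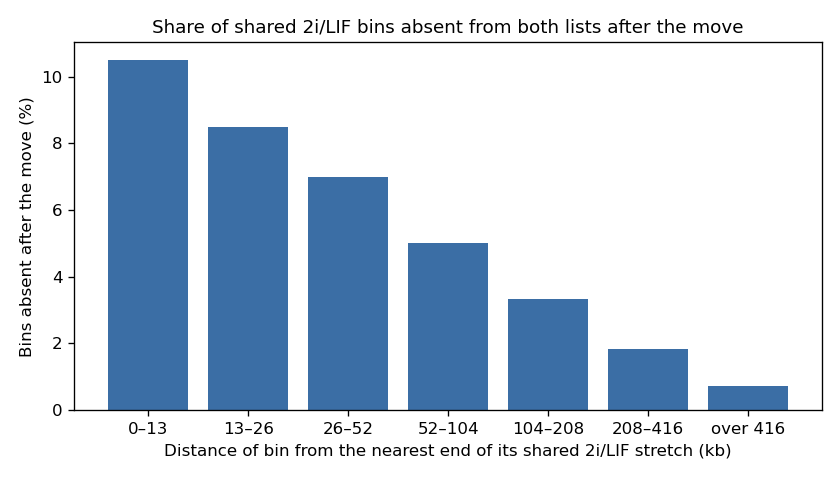
Share of the bins in all 2i/LIF lists that were absent from both lists after the move (%), by distance from the nearest end of their shared stretch (kb). The share falls from 10.5% within 13 kb of an end to 0.717% beyond 416 kb.

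The longest regions that were a whole stretch were the one on chromosome 14 from 100682401 to 100934600 (252 kb), whose neighbouring domain after the move was a single bin (1.30 kb) away, the one on chromosome 3 from 92761501 to 93000700 (239 kb), 157 kb away, and one on chromosome 16 from 42433301 to 42611400 (178 kb), 23.4 kb away. In each, line 34 had a domain with exactly these ends, while lines 35 and 37 had longer domains of 290 to 1072 kb around it. The last was covered by XS line 31 alone, over its full length.

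Every chromosome used held such regions, between 19 on chromosome 5 and 58 on chromosome 1. As a share of the shared 2i/LIF length, absence was lowest on chromosome 5 (1.54%), chromosome 11 (3.36%) and chromosome 7 (3.38%), and highest on chromosome 19 (11%), chromosome 18 (8.24%), chromosome 14 (7.82%) and chromosome 13 (7.39%). Chromosome 11, with 56.1 Mb the chromosome with the most shared 2i/LIF length beside chromosome 2, had 40 regions and 1.89 Mb. On chromosome 13 47 regions made up 2.92 Mb, more than on any other chromosome used.

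Chromosome 19 stood apart from the other 16 in how the lists after the move differed. It held 43 regions and 2.60 Mb, 8.01% of the absent length on 2.72% of the span. The list of line 34 after the move lacked 33.6% of its shared 2i/LIF length, against 3.17% to 14.6% on the other 16. The list of line 37 lacked 11.1%, within the range of 5.52% to 14.2% elsewhere. Nearly everything line 37 lacked on chromosome 19, 98.6%, was also lacking in line 34, whereas on the other 16 this share was 28.0% to 63.2%. The high share of chromosome 19 thus came with the list of line 34, and a difference between 1 list and 1 list has no replicate check. Without chromosome 19, 607 regions and 29.8 Mb remained, 4.61% of the shared 2i/LIF length.

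**Figure D4:**
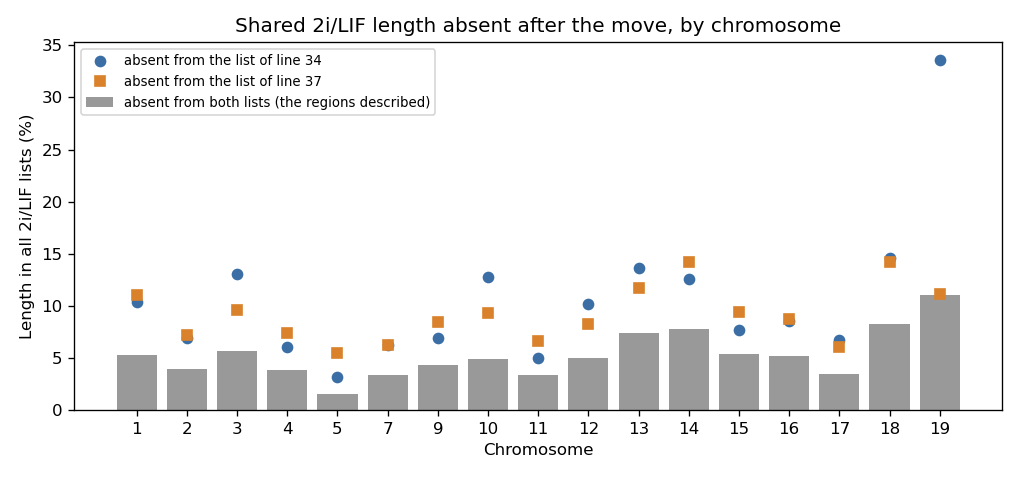
Share of the shared 2i/LIF length (%) absent from both lists after the move (bars), from that of line 34 (circles) and from that of line 37 (squares), by chromosome. On chromosome 19 the circle stands at 33.6% while bar and square nearly meet at 11% and 11.1%; on the other chromosomes circle and square lie well above the bar.

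Along chromosome 19 the regions were not evenly placed. In 5 of 12 consecutive windows of 5 Mb over 20% of the shared 2i/LIF length was absent, and these windows held 73.3% of the absent length of the chromosome. They lay from 13096201 to 23095800, from 28095601 to 38095200 and from 48094801 to 53094600. From 18096001 to 23095800 line 34 after the move lacked all of the shared length and line 37 lacked 26.1%. In the first window, from 3096601 to 8096400, 0.773% was absent. The 5 windows held 0.643 to 1.91 Mb of shared 2i/LIF length each, and the first held 3.20 Mb.

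On the other chromosomes the densest window of 5 Mb was on chromosome 13 from 18827901 to 23827700. It held 8 regions with 0.629 Mb, or 56.3% of the length shared by the 2i/LIF lists there. XS lines 30, 31 and 32 covered 2.68%, 15.2% and none of this window, and 2i/LIF lines 34, 35 and 37 covered 24.7%, 65.9% and 52.3%. Over the whole of chromosome 13, XS line 32 covered 0.144% of the shared 2i/LIF length present in both lists after the move. A window on chromosome 18 from 6947201 to 11947000 held 6 regions with 0.603 Mb, 40.9% of its shared length. The first 5 Mb of the chromosomes' spans, near the centromeres, lost 5.03% of their shared 2i/LIF length, as did the parts between the ends with 5.02%, and the last 5 Mb lost 1.95%.

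The Serum/LIF XS lists were not used by the rule, and each covered less of the absent regions than of the 2i/LIF length that persisted. The bins compared were, however, chosen by the lists after the move: persisting bins lie in both and absent bins in neither. Any list that shares domains with the lists after the move would cover more of the persisting bins for that reason. The choice of bins thus favours the sign of this difference, which is given as a description. XS line 30 covered 11.2% of the absent bins, 71.5% of the bins present in both lists after the move and 37% of all bins. XS line 32 covered 5.13%, 33.1% and 30.4%. XS line 31, the widest of the XS lists, covered 69.9%, 90.1% and 72.9%. XS lines 30 and 32 thus covered far less of the absent bins than of the span, whereas XS line 31 differed from its own background by only -2.93 percentage points. The span includes the bins of the lists after the move, 47.5% of it in line 34 and 46.8% in line 37. By the rule the absent bins leave these out, and a background without them was not computed. The difference from the span is therefore not a trait of the absent regions alone.

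Over the 3 lists the mean coverage was 28.7% ± 35.8 of the absent and 64.9% ± 29.1 of the persisting bins (SD, n = 3). The difference within lists was -36.1 ± 21.2 percentage points (SD, n = 3), lower in 3 of 3 lists, with a two-sided exact permutation p, from all sign flips, of 0.25, below which 3 lists cannot go. Against the whole span the difference was -18.0 ± 13.1 points (SD, n = 3; exact permutation p = 0.25), also in 3 of 3. This agreement in sign rested on the -2.93 points of XS line 31. Without 2i/LIF line 34, XS line 31 stood 4.16 points above the span and the mean was -8.45 (exact permutation p = 0.5). With the higher-scoring 50% of each list it stood 2.10 above and the mean was -14.0 (exact permutation p = 0.5). The difference from persisting bins stayed negative in 3 of 3 lists in both settings, with a mean of -23.8 without 2i/LIF line 34. Adjusted over the 3 comparisons made with the XS lists (Benjamini-Hochberg), each exact permutation p remained 0.25, so none passed 0.05. On each of the 17 chromosomes all 3 XS lists covered less of the absent than of the persisting bins, but chromosomes of a list are not replicates. On chromosome 13 XS line 32 covered none of the absent and only 0.144% of the persisting bins, against 18.9% to 52.4% of the persisting bins elsewhere. That comparison is therefore nearly empty.

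Bins that persisted in only 1 list after the move lay between both classes. XS line 30 covered 24.6% of those present in line 34 only and 24.1% of those in line 37 only. For XS line 31 the values were 74.6% and 74.4%, and for XS line 32 8.06% and 8.55%. In each XS list, coverage of these bins was above that of the absent ones and below that of the persisting ones. The classes were thus ordered as the number of lists after the move that held their bins, by which they were chosen. These near misses came to 25.9 Mb in line 34 only and 30 Mb in line 37 only, each somewhat less than the 32.4 Mb of the absent regions. Bins missed because 1 of the 2i/LIF lists lacked them amounted to 182 Mb for line 34, 3.78 Mb for line 37 and 0.473 Mb for line 35.

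**Figure D5:**
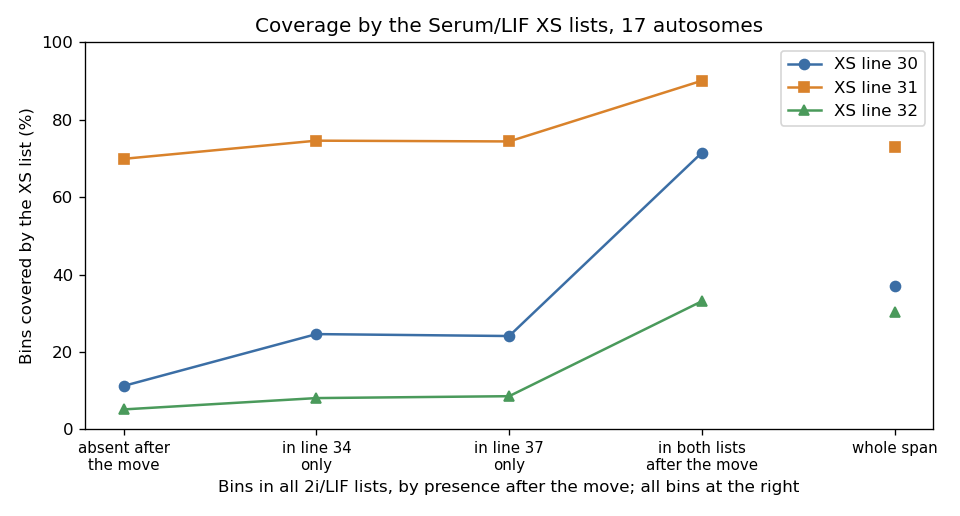
Share of bins covered by the lists of XS lines 30, 31 and 32 (%) among bins in all 2i/LIF lists that were absent after the move, present in 1 list or present in both, and among all bins at the right; lines join values of 1 list. All 3 lists rise from the absent to the persisting bins, XS line 30 from 11.2% to 71.5%.

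The difference was smaller, but of the same sign in 3 of 3 lists, near the ends of stretches and within the stretches that hold the regions. Restricted to bins within 13 kb of an end, absent and persisting alike, the mean difference was -21.5 points. With persisting bins taken only from the stretches that also hold an absent region it was -30.1 points (-50.9, -18.1 and -21.2 in XS lines 30, 31 and 32), which was tried after the data had been seen. In both, the two-sided exact permutation p was again 0.25. Coverage also differed with position: XS line 30 covered 4.92% of the bins of whole stretches, 11.4% of those at an edge and 15.5% of those inside, and XS line 31 63.9%, 68.0% and 78.6%. For XS line 32 the order was not kept, with 6.67%, 4.73% and 4.83%.

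The regions differed among themselves chiefly in XS line 31. Of the 650, 393 were covered completely by XS line 31, 67 by XS line 30 and 18 by XS line 32, and 188, 535 and 595 were not touched. Counts of whole regions have no background here. Counted as bins, XS lines 31, 30 and 32 covered 69.9%, 11.2% and 5.13% of the absent bins, against 72.9%, 37% and 30.4% of all bins. By length, 56.2% of the absent bins were in XS line 31 alone, 29.4% in no XS list, 8.74% in XS lines 30 and 31, and 1.96% in all 3. Of all bins of the span 24.9% were in no XS list, close to the share of the absent bins, and 20.2% in all 3. Of the persisting bins 6.99% were in no XS list and 31.7% in all 3. Only 10 regions were covered completely by all XS lists. The longest of them were on chromosome 7 from 77974001 to 78059800 (85.8 kb) and from 137022601 to 137056400 (33.8 kb), and on chromosome 5 from 115415301 to 115441300 (26 kb).

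Borders of XS domains lay near ends of the regions in a minority of cases. A border of XS line 30 facing the same way was within 13 kb of 10.1% of the 722 ends where a domain after the move began, compared with 2.89% of all positions. For XS lines 31 and 32 the shares were 7.34% and 4.02%, compared with 2.49% and 4.93% of all positions. At the 578 ends of shared 2i/LIF stretches they were 7.44%, 14.5% and 2.42% for XS lines 30, 31 and 32. XS line 32 thus stood below its background at both kinds of end. That background counts all positions of the span and was not matched to the absent regions. XS line 32 covered 5.13% of the absent bins and 30.4% of all bins.

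Absent regions on chromosomes 6 and 8 were covered more by the XS lists than those described here. XS lines 30, 31 and 32 covered 59.2%, 85.8% and 27.2% of these, against 31.2%, 71.8% and 31.1% of all bins on these chromosomes, so XS line 32 lay below its background there too. The difference was -28.6 ± 17 percentage points (SD, n = 3), lower outside chromosomes 6 and 8 in 3 of 3 lists, and the two-sided exact permutation p was 0.25, as low as 3 lists can give. It was -16.4 points without 2i/LIF line 34 and -18.9 without XS line 30. The sets compared are unlike, since the rule took 91.9% of the shared 2i/LIF length on chromosomes 6 and 8 and 4.83% outside them. Outside them XS lines 30, 31 and 32 covered 71.5%, 90.1% and 33.1% of the persisting bins, which the absent set leaves out. The difference therefore cannot be read as a trait of the absent regions alone. The XS lists come from other lines than the lists that define the regions, so culture and line cannot be told apart here.

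The Serum/LIF S lists, which cover little of the genome, hardly met the regions. S line 35 covered no absent bin, against 0.0404% of all bins, and S line 37 covered 43 bins, or 0.172% of the absent bins against 0.396% of all. Of the persisting bins S line 37 covered less, 0.0412%, and S line 35 covered 0.000223%. The 43 absent bins in S line 37 lay in 3 regions. On chromosome 9 from 88904401 to 88935600 (31.2 kb) the 3 2i/LIF lists and S line 37 held domains with identical ends, and no XS list touched the place. On chromosome 13 from 66474201 to 66475500 the same single bin was a domain of its own in the 3 2i/LIF lists, S line 37 and XS line 31. On chromosome 11 from 116595701 to 116626900 (31.2 kb), inside a 1942 kb stretch, S line 37 covered 75%.

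Domains with exactly the ends of an absent region in all 3 2i/LIF lists were found at 6 places, the 2 just named among them. The others were on chromosome 4 from 61621301 to 61692800 (71.5 kb), where XS line 31 had the same domain too, on chromosome 13 from 50237201 to 50338600 (101 kb) and from 50364601 to 50376300 (11.7 kb), and on chromosome 1 from 84982301 to 84983600 (1 bin). Here, unlike at most regions, the 3 2i/LIF lists agreed to the bin, while absence from the lists after the move is set by the rule for every region.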

How the data were processed

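Native ChIP-seq of H2A.X was the measurement. Per the submitters' processing notes, reads were mapped with Bowtie2 2.0.6, and the build named is mm9. The authors deposited 1 list of decreased domains for each of the 10 H2A.X samples used. Caller, settings, control and pooling are not given in the sources at hand. A list holds chromosome, start, end, a state that reads as enriched although the list is named decreased (the name was followed), a value of undefined meaning (not used) and a score, deposited by the authors, which here served only to keep the higher-scoring 50% of each list as an alternative.

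Groups and line numbers come from the sample titles. Each list was turned into bins of 1300 bp, the step of all starts and lengths. Coordinates are 1-based. The gene and promoter tables at hand are of another build, so no gene was assigned and no sequence printed. XS coverage was compared within lists by an exact permutation test (all sign flips, two-sided), with Benjamini-Hochberg adjustment over 3 comparisons. The regions named are the 10 longest, the 2 longest on chromosome 19, and the 3 longest touched by no XS list, covered completely by all XS lists, or forming a whole stretch. Those touched by an S list or with identical ends were chosen after their values were seen, as were the windows of 5 Mb, the XS borders and the comparison with chromosomes 6 and 8. The members and lists were chosen with earlier results of these data known. Titles give each line a number, which pairs samples across cultures. The lists hold no depth, so no counting interval was computed. The rule was tested on simulated lists, and the permutation test on fixed values whose result is known. Python 3.11.15, numpy 2.4.6, scipy 1.17.1 and matplotlib 3.10.9 were used.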

Additional observations from a re-analysis of the deposited data

How the results depend on the processing

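The number and length of the regions depend on the lists used. Leaving out 1 list at a time, the number ranged from 667 to 1742 and the length from 32.9 to 215 Mb. The largest values came without 2i/LIF line 34, whose narrow list limits the regions (1742 regions, 215 Mb). Ignoring line 34 after the move gave 1190 regions and 58.3 Mb, and without that of line 37 902 regions and 62.4 Mb. With the line as a replicate block, which leaves out line 35, 667 regions and 32.9 Mb were found and the XS difference was -36.0 points; the block changed no call. The higher-scoring 50% of each list gave 302 regions over 28.0 Mb, and chromosomes 6 and 8 included gave 96.4 Mb. With regions of at least 10 bins only, 58.1% were at an edge, 28.0% inside and 13.9% whole stretches.

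The difference of XS coverage between absent and persisting bins stayed negative, a sign that the choice of these bins favours, under all 17 alternatives, from -44.1 to -17.1 points. Against the whole span it was negative under 15 of 16, but 1.21 points with chromosomes 6 and 8 included (exact permutation p = 1.00, two-sided), where those chromosomes hold most of the absent length. Leaving out 1 list at a time it was -25.5 to -8.45 points, and without 2i/LIF line 34 or with the higher-scoring 50% of each list only 2 of 3 XS lists stayed below the span. No exact permutation p was under 0.25, the smallest that 3 lists allow, so these tests say nothing of stability. What depth limits is unknown, as the lists hold no counts.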
